A study of Mus musculus with 2 samples.

Results

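The data described here are the spots of 2 coronal mouse brain sections that scored highest for genes of the CA3 pyramidal layer, the cell layer between the dentate gyrus (DG) and CA1 of the hippocampus. The assay was Visium, which captures RNA from the tissue over each spot of a slide with a positional barcode and counts it as unique molecular identifiers (UMIs), 1 for each captured molecule. A spot is a small region that can hold several cells of different types, or parts of cells. For every spot with at least 2000 UMIs, a score was taken as the mean over Iyd, Cdh24, Grik4, Nectin3, Galnt3, Cpne4 and Rnf182 of the natural log of 1 plus the UMIs of the gene per 10000 UMIs of the spot. The 70 highest scores of each section were selected, which gave 140 CA3-score spots of 7173 spots above that depth and 7890 spots in all. Because the spots were selected on measured values of these genes, the values of the score genes below describe the selection and are not a finding.

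Each section came from 1 adult male ArcCreERT2::eYFPflx mouse on a C57BL/6 background, a line in which cells that express Arc at the time of an induced Cre activity can be marked with eYFP, and both sections held the dorsal hippocampus of both hemispheres. The mouse labelled trained had learned active place avoidance, in which an unmarked sector of a rotating arena delivers a mild foot shock, and the mouse labelled untrained had been on the same arena with the shock off. Both had been given a retention trial without shock, and brains were taken an hour later. With 1 section of 1 mouse per group (n = 1 and n = 1), label, animal, section and library cannot be told apart, spots are not replicates, and no p-value is given for any difference. The labels may have been exchanged against the mice that the study describes. This was not tested, and directions are stated for the labels as they stand.

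CA3 pyramidal neurons receive the mossy fibres of DG granule cells, whose large terminals contact spines close to the cell body, and they excite one another through recurrent collaterals. Their Schaffer collaterals are a main excitatory input to CA1. Mossy fibre synapses are known for kainate receptors and for strong presynaptic facilitation, and the far end of the layer borders CA2, a small field with its own marker genes.

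In all, 4152 spots and 29515831 UMIs carried the label trained, and 3738 spots and 59029131 UMIs carried the label untrained. Of the spot barcodes, 3448 occurred in both sections, since a barcode stands for a position of the slide grid and not for a cell. The CA3-score spots pooled 805631 UMIs in the section labelled trained, with a median of 7453.5 per spot (lowest 2040, highest 38005), and 2026801 in the section labelled untrained, with a median of 26794 (lowest 2534, highest 81519). Levels are given as CPM, UMIs of a gene scaled to a total of 1000000 UMIs pooled over a set of spots. Intervals are 95% intervals, from the exact Poisson method for CPM values and the exact conditional binomial method for ratios, and they cover counting error alone. In pooled spots, fewer cells of a type and less RNA per cell cannot be told apart.

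On the slide grid, most but not all of the selected spots lay in the hippocampus. In the section labelled trained 42 of the 70 spots, and in the section labelled untrained 47 of the 70, formed 1 patch on each side of the brain (17 left and 25 right, then 21 left and 26 right), where a patch is a group of at least 5 members linked by steps of at most 2 spot spacings. Each patch ran as a band from the DG spots outwards towards the lateral end of the CA1 spots. Spots in patches lay a median of 3.53 and 4.36 spacings from the nearest DG spot and 5.29 spacings from the nearest CA1 spot in both sections. The other 28 and 23 spots were scattered over the tissue, most of them away from the band, a median of 8.80 and 11.3 spacings from DG and 13.4 and 9 spacings from CA1. Of them, 24 of 28 and 18 of 23 had no other member among their 6 grid neighbours, and 5 and 6 lay within 3 spacings of a CA1 or DG spot. The scattered spots were shallower, with medians of 5057 and 11404 UMIs against 12607 and 34002 in patches.

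**Figure D1:**
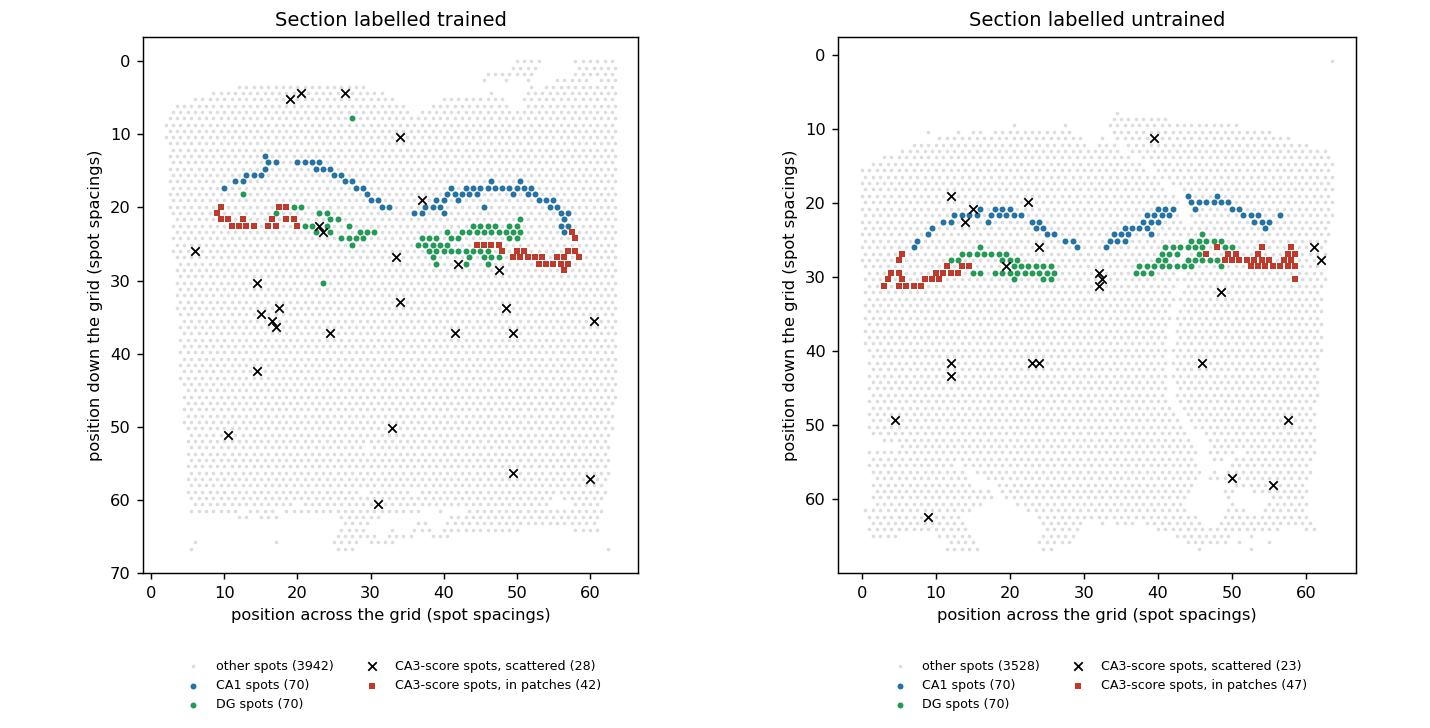
Positions of all spots in the section labelled trained (left) and the section labelled untrained (right), with both axes in spot spacings of the slide grid. Red squares are CA3-score spots in patches (42 and 47), black crosses are scattered CA3-score spots (28 and 23), and blue and green points are the 70 CA1 and 70 DG spots of each section. A reader should see 1 red band on each side between the DG and CA1 spots and crosses spread over the rest of the tissue.

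The lowest score selected and the highest score left out were close. In the section labelled trained the spot at rank 70 had a score of 0.363984 and the spot at rank 71 had 0.36391, with a median of 0.433 and a highest value of 0.661 among members. In the section labelled untrained the same ranks had 0.309648 and 0.309412, with a median of 0.370 and a highest value of 0.612. A median of 3 and 4 of the 7 score genes had a UMI in a member.

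Among the score genes, Cpne4, a calcium-dependent phospholipid-binding copine, stood at 316 and 213 CPM (trained then untrained label, the order used throughout) against 3.57 and 16.7 in CA1 spots, 116 and 85.6 in DG spots and 44.4 and 37.3 in the rest of the section. Nectin3, an adhesion molecule of synaptic junctions, stood at 129 and 70.6 CPM against 11.9 and 12.8 in CA1 spots and 11.7 and 6.99 in DG spots. Grik4, which encodes a kainate receptor subunit, stood at 93.1 and 83.4 CPM, and its level was 105.5 and 86.7 in patches but 39.5 and 63.9 in scattered spots. Rnf182, a ubiquitin ligase, stood at 67.0 and 45.4 CPM, Iyd, an iodotyrosine deiodinase, at 31.03 and 17.3, and Cdh24, a cadherin, at 11.2 and 15.3. Galnt3, a glycosyltransferase of O-linked sugars, was close to undetected at 4.97 and 2.47 CPM.

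Genes that did not enter the score separated the patches from the scattered spots. Of 10 further CA3 genes, the summed level was 1523 and 1344 CPM in CA3-score spots, 222 and 247 in CA1 spots, 212 and 264 in DG spots, and 572 and 535 in the rest of the section. In patches the same sum was 1742 and 1485 CPM, and in scattered spots it was 579 and 521, close to the rest of the section. The summed score genes, in contrast, were 1.08 and 1.02 times as high in patches as in scattered spots, against 3.01 and 2.85 times for these 10 genes. Bok, a member of the BCL2 family, had 385 and 312 CPM in all members, 445 and 349 in patches, and 125 and 97.6 in scattered spots. Over single spots of the patches, Bok ran from 0 to 933 CPM with a median of 413 in the section labelled trained and from 72.8 to 549 with a median of 352 in the section labelled untrained, where every patch spot had at least 1 UMI. Npy2r, a receptor for neuropeptide Y, had 52.1 and 59.7 CPM, and in scattered spots it was at 0 and 3.36. Coch, the cochlin gene, went against the list at 2.48 and 4.44 CPM, below the 20.1 and 16.7 of the rest of the section. By the sum of these 10 genes, the patches stood above both other layers and the rest of the section. The label CA3 did not hold for the scattered spots by this sum. The 10 genes were listed with earlier results of these data known, so their levels are a description and no independent check. Values in the patches alone are given beside several of the results below.

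In CA3-score spots, CA1 markers were below the rest of the section and DG granule cell markers above it. The 6 CA1 markers summed to 80.7 and 91.8 CPM, against 174 and 153 in the rest of the section. The 6 DG granule cell markers summed to 155 and 140 CPM, against 114 and 120 there. CA1 spots had 1456 and 1418 CPM of the CA1 markers, and DG spots 1358 and 1157 of the DG markers. The CA1 and DG spots were selected on these same markers, so the gap to them was set by the selection. Oligodendrocyte markers in CA3-score spots summed to 2671 and 2852 CPM, with 6478 and 6335 in scattered spots, 1787 and 2254 in patches, and 7546 and 6906 in the rest of the section. Thalamic markers summed to 206 and 149 CPM, with 586 and 458 in scattered spots and 118 and 96.0 in patches. CA2 markers, mainly Pcp4, summed to 2747 and 1378 CPM, with 7018 and 4296 in scattered spots against 1755 and 877 in patches. The part of these other tissues in the values of all 70 spots was not tested, and the values of the patches are the measurement nearest to the layer itself.

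To describe what set the layer apart, each gene was compared with 70 CA1 spots and 70 DG spots per section, selected by the same formula over 6 CA1 and 6 DG markers among the spots that were not CA3-score spots. All 70 CA1 spots of each section, and 64 of 70 and 70 of 70 DG spots, lay in patches of their own. Of 4556 genes with at least 100 UMIs over the 3 sets in each section, 30 (0.658%) were at least 2-fold higher in CA3-score spots than in both other layers in both sections and 22 (0.483%) were at least 2-fold lower. The 30 include Cpne4 and Nectin3 of the score, from which nothing is read. Since the spots were chosen by expression, and genes that share cells with the score genes follow the choice, these values are a description with no test. With patches alone, 34 of 4354 genes were higher and 27 lower, and 27 of the 30 and 19 of the 22 were among them.

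Bok had the highest smallest ratio over both layers, at 5.56 to 10.3 times the level of the other layers over the 4 comparisons. Spock1, a secreted proteoglycan of the testican family, was at 325 and 359 CPM against 60.8 and 60.2 in CA1 and 23.5 and 41.9 in DG, or 5.31 to 13.6 times. In single spots Spock1 reached 801 and 710 CPM, and its median was 293 and 332 against 0 and 61.0 in CA1 spots. Hs3st4, a sulfotransferase that modifies heparan sulfate, was at 233 and 187 CPM, 3.60 to 9.28 times the other layers, and Gpc1, a glypican that carries heparan sulfate chains, was at 103 and 133, 3.76 to 5.61 times. Elavl2, a neuronal RNA-binding protein, was at 187 and 117 CPM, 4.36 to 11.9 times. For these 5 genes every 95% interval of the 4 log2 ratios lay above 1, and the lowest bound was that of Gpc1 over DG under the label trained, with an interval of 1.25 to 2.67.

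The other 7 of the 12 genes included secretory, membrane and cell cycle genes. Chgb, a granin stored in dense-core vesicles, was among the most abundant at 1424 and 1194 CPM against 367 and 396 in CA1 and 383 and 349 in DG, which made 3.02 to 3.88 times. Nnat, an imprinted gene for a small membrane protein of the endoplasmic reticulum, was at 180.0 and 368 CPM, 3.94 to 9.19 times the other layers. Nrip3 was at 194 and 176 CPM, 3.85 to 7.58 times, and Ccnd2, which encodes cyclin D2, at 186 and 204, 3.64 to 7.29 times. Fbxo2, an F-box protein that recognises glycoproteins for degradation, was at 129 and 160 CPM, 2.81 to 5.98 times, and Ly6e, a membrane-anchored protein of the Ly6 family, at 351 and 424, 2.91 to 3.39 times. Necab2, a calcium-binding protein known from CA2, was at 132 and 201 CPM, 2.97 to 5.69 times, but with patches alone its smallest ratio was 1.83. Nnat lies across Blcap on the other strand, and Gpc1, Elavl2, Hs3st4 and Ccnd2 also overlap annotated transcripts on the other strand; whether strand was used in the counting is not given in the sources used here.

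**Figure D2:**
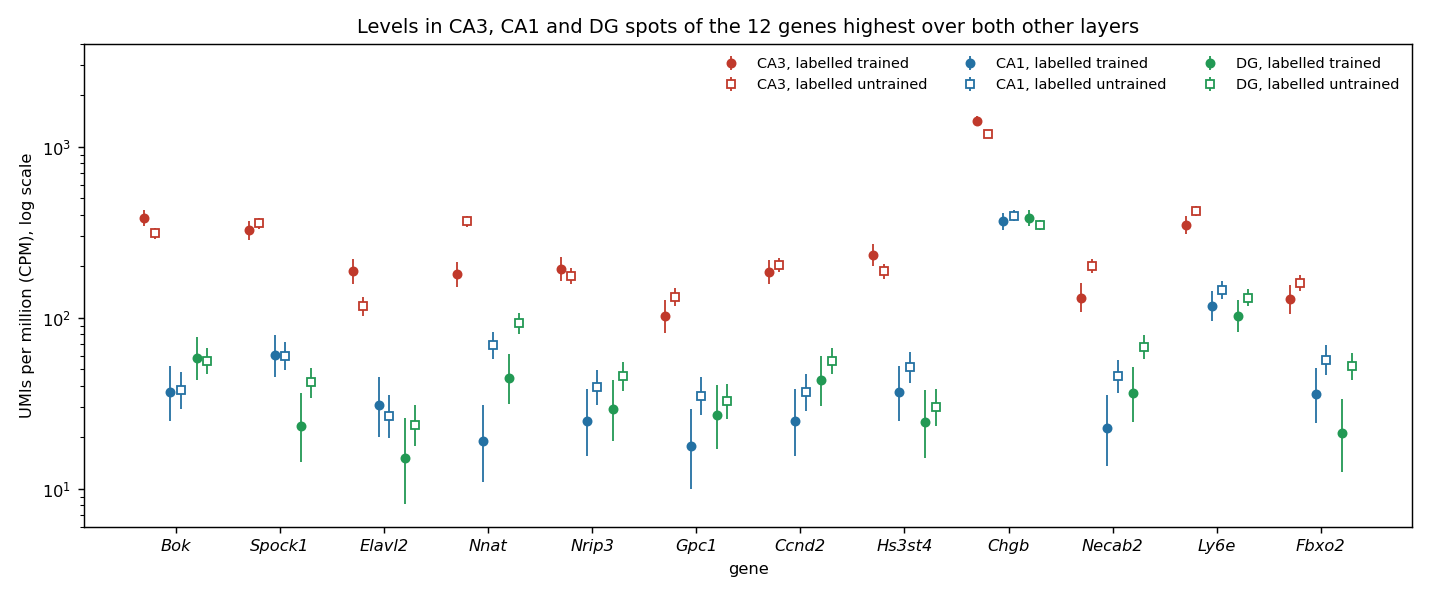
Levels in CPM, on a log axis, of the 12 genes highest in CA3-score spots over both other layers, for CA3-score, CA1 and DG spots of the section labelled trained (filled) and untrained (open), with exact Poisson 95% intervals as bars. Every CA3 point lies above the CA1 and DG points of its section, by 2.81 times or more.

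The authors' tables hold a measure of spatial unevenness over the whole section. Moran's I, a score of how far neighbouring spots share a level, was 0.205 and 0.343 for Bok, 0.401 and 0.454 for Nnat, 0.230 and 0.330 for Chgb, and 0.181 and 0.226 for Cpne4. It was near 0 for Galnt3, at 0.00554 and 0.00497, and for Cdh24 under the label trained, at 0.00179. Moran's I does not tell which region carries a gene.

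The 6 genes lowest against both layers included transcription factors, a kinase and a surface protein. Bcl11b, a zinc finger transcription factor, was at 38.5 and 34.5 CPM against 181 and 150 in CA1 and 161 and 149 in DG, a share of 0.215 to 0.242 of the other layers over the 4 comparisons. Bcl6, a transcriptional repressor, was at 16.1 and 21.2 CPM, a share of 0.167 to 0.331. Cdk17, a cyclin-dependent kinase, was at 86.9 and 41.9 CPM, a share of 0.283 to 0.345, and Lypd1, a relative of modulators of nicotinic receptors, was at 27.3 and 29.6, a share of 0.166 to 0.364. Sertm1 and Dbpht2 had shares of 0.165 to 0.296 and 0.182 to 0.288. Bcl11b differed least between the 4 comparisons of these 6 genes. Bcl6, Cdk17 and Lypd1 overlap annotated genes on the other strand, for Cdk17 Elk3 and for Lypd1 Gpr39.

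Genes of synaptic vesicle release stood above both other layers as a group. Of 22 listed genes compared, 18 (81.8%) had a log2 ratio above 0 against CA1 and against DG in both sections, beside 908 of all 4556 genes (19.9%), and with patches alone 19 of 22 did. Their summed level was 12902 and 14026 CPM, which was 1.69 and 1.65 times that of CA1 spots and 1.83 and 1.59 times that of DG spots. Snap25, a SNARE protein of the release machinery, was at 4075 and 2853 CPM against 1657 and 1274 in CA1 and 1550.3 and 1320 in DG. In single spots Snap25 ran from 0 to 7520 CPM (median 2984) under the label trained and from 0 to 4633 (median 2375) under the label untrained, and the patches had medians of 4147 and 2999. Bsn, the active zone scaffold bassoon, was at 282 and 339 CPM against 78.6 and 111 in CA1 and 133 and 151 in DG. Sv2b, a vesicle membrane glycoprotein, was at 353 and 380 CPM against 10.6 and 41.9 in DG.

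Members of the release list did not all follow. Unc13a, a priming factor, was the 1 gene below 0 in all 4 comparisons, at -0.33 and -0.28 on the log2 scale over CA1 and -0.34 and -0.16 over DG, with intervals that reached 0 in part of the comparisons. Cplx2, a complexin that clamps and promotes fusion, was above CA1 by 1.32 and 1.30 but below DG by 0.37 and 0.54, whereas Cplx1 was above both layers by 0.94 to 1.28. Syn2, a synapsin of the vesicle pool, was above both by 0.98 to 1.49, and Vamp2, the main vesicular SNARE, by 0.18 to 0.29. The highest log2 ratios of the list were those of Sv2b over DG, 4.99 and 3.17.

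**Figure D3:**
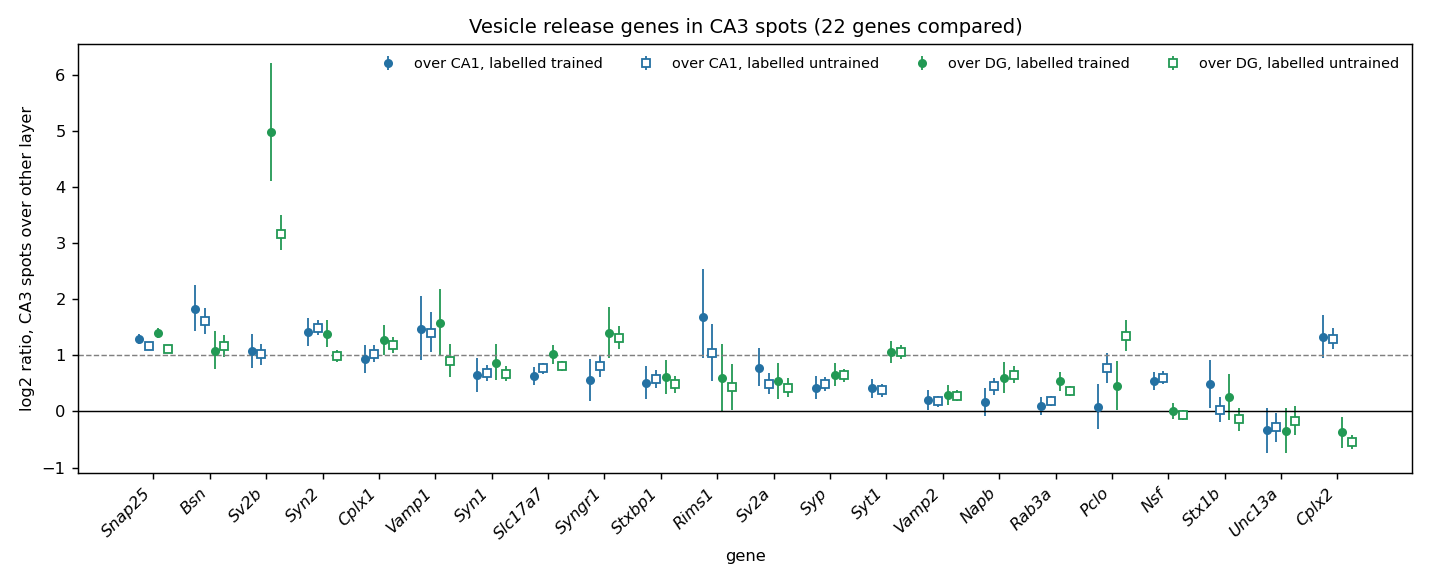
Log2 ratio of CA3-score spots over CA1 spots and over DG spots in each section for the 22 vesicle release genes compared, with 95% intervals from counting as bars, a solid line at equal level and a dashed line at 2-fold. For 18 of the 22 genes all 4 points lie above 0, and for Unc13a all 4 lie below.

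Receptors for glutamate were arranged differently by class. Without the score gene Grik4, the 6 other kainate receptor and Neto auxiliary subunit genes summed to 483 and 450.0 CPM against 259 and 294 in CA1 and 428 and 351 in DG, or 1.87 and 1.53 times the CA1 level and 1.13 and 1.28 times the DG level. Without Neto1 as well, the other 5 were at 1.28 and 1.14 times the CA1 level and 0.896 and 1.04 times the DG level. Neto1, an auxiliary subunit of kainate receptors, was at 181 and 141 CPM against 22.6 and 22.3 in CA1 and 91.5 and 53.3 in DG. AMPA receptor genes, which carry most fast excitation, were lower than in CA1, with a summed level 0.672 and 0.702 times that of CA1 spots, and 3 of 8 compared (37.5%), Gria1, Gria2 and Gria3, were below 0 in all 4 comparisons, beside 1041 of all 4556 genes (22.8%). With patches alone 2 of 8 were, Gria1 and Gria2, beside 22.2% of all genes. Gria1 was lower by 1.06 and 0.82 on the log2 scale against CA1 and by 0.90 and 0.42 against DG. NMDA receptor genes summed to 0.571 and 0.588 times the CA1 level, and Grin2a was lower than CA1 by 1.26 and 1.25. Gria3 against DG was close to 0, at -0.01 and -0.05.

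Of 12 listed genes that organise the mossy fibre synapse, 4 could be compared. Of these 2 (50%), Gpr158 and the score gene Nectin3, were above 0 in all 4 comparisons and 0 below, beside 19.9% and 22.8% of all genes. C1ql2 and C1ql3, secreted by granule cells as bridging proteins, were lower in CA3-score spots than in DG, by 3.08 and 3.14 and by 3.25 and 3.37 on the log2 scale, where C1ql2 is 1 of the genes that selected the DG spots and C1ql3 fell short of the UMI minimum. Gpr158, a postsynaptic receptor at these contacts, was higher than in both layers, by 0.65 to 1.36. Among potassium channels, 7 of 17 compared (41.2%) were below 0 in all 4 comparisons and 4 (23.5%) above, beside 22.8% and 19.9% of all genes, and with patches alone 6 were below and 5 above. Kcnq5, a subunit of the M current, was above both layers and most of all above DG, by 2.75 and 3.15, while Kcnd2, of the A-type current, was below CA1 by 1.19 and 1.16. Of 20 kinase and calcium signalling genes compared, 6 (30%) were below 0 in all 4 comparisons and 2 (10%), Prkca and Camkk2, above, beside 22.8% and 19.9% of all genes, and with patches alone 5 of 19 were below and 3 above. Nrgn, which binds calmodulin in spines, was below both layers by 0.40 to 0.58, and Ppp3ca, the catalytic subunit of calcineurin, by 0.45 to 0.91.

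Immediate early genes, transcribed within minutes of strong activity, differed in their order over the layers. Of 14 compared, 0 were above 0 in all 4 comparisons, beside 19.9% of all genes, and 4 (28.6%) were below, Rgs2, Dclk1, Syne1 and Egr3, a share near the 22.8% of all genes. Egr1, a zinc finger factor induced by activity, was at 103 and 90.3 CPM in CA3-score spots against 447 and 420.0 in CA1 and 57.5 and 47.2 in DG. Arc, a regulator of AMPA receptor traffic, was at 83.2 and 51.3 CPM against 169 and 187 in CA1 and 15.2 and 18.3 in DG. Egr1 and Arc shared the order CA1, CA3, DG in both sections, with intervals that did not overlap. Nr4a1, an orphan nuclear receptor, had 28.5 and 34.5 CPM against 186 and 208 in CA1 and 12.9 and 14.9 in DG, and its intervals in CA3-score and DG spots overlapped under the label trained. Jun, a subunit of AP-1, had the reverse order of Arc, at 52.1 and 49.8 CPM against 14.3 and 22.3 in CA1 and 268 and 167 in DG. Nrn1, a neurotrophic surface protein, was at 409.6 and 270.4 CPM, above CA1 by 1.19 and 1.02 on the log2 scale.

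Detection of Arc and Egr1 in single spots was counted before and after thinning to an equal depth. Arc had a UMI in 35 and 47 of the 70 CA3-score spots, and after thinning every spot to 2000 UMIs the expected shares were 14.8% and 10.5%. Egr1 had a UMI in 35 and 55 of 70 spots before thinning and in 15.8% and 16.4% after. Before thinning, both genes were thus detected in more spots of the section labelled untrained, which was the deeper library. In CA1 spots, the thinned shares were 30.1% and 30.1% for Arc and 48.3% and 50.4% for Egr1. In DG spots the thinned share of Arc was 3.02% and 3.46%.

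Lists of other cell types and of housekeeping genes were compared in the same way. All 6 oligodendrocyte genes compared were above 0 in all 4 comparisons, beside 19.9% of all genes, and Mobp, a myelin protein, was past 2-fold. With patches alone these 6 genes were still above both layers, with a sum 1.48 and 1.49 times that of CA1 spots, but Mobp was no longer past 2-fold. Of 6 astrocyte genes, 3 (50%) were above 0 in all 4 comparisons and 1 (16.7%) below, beside 19.9% and 22.8% of all genes. Cytoplasmic ribosomal protein genes had a sum 0.792 and 0.744 times that of DG spots and 0.991 and 0.980 times that of CA1 spots. Of 81 compared, 29 (35.8%) were below 0 in all 4 comparisons, beside 22.8% of all genes, and 42 (51.9%) with patches alone, beside 22.2%. Nuclear genes of oxidative phosphorylation had 35 of 77 above 0 in all 4 comparisons (45.5%), beside 19.9% of all genes, with sums within 1.15 times of the other layers. Of 6 interneuron markers compared, 2 (33.3%), Sst and Npy, were above 0 in all 4 comparisons and 1 (16.7%), Gad1, below. Over all genes these shares were 19.9% and 22.8%. The interneuron list summed to 866 and 1164 CPM against 1090.1 and 873 in CA1, in opposite order under the 2 labels. Sst, the somatostatin gene, was higher in CA3-score spots than in both layers by 0.90 to 1.90 on the log2 scale.

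The next comparison asked how expression differed along the layer, from the part next to DG to the part next to CA2. In patches, the 21 and 24 spots nearest to DG were compared with the 21 and 23 farthest, split at the median distance of 3.53 and 4.36 spacings. Of 1246 genes with at least 100 UMIs over the patches of each section, 3 were at least 2-fold higher far from DG in both sections and 2 at least 2-fold higher near it, and 822 had the same sign in both sections. Crym, a thyroid hormone binding protein, had 74.9 and 51.8 CPM near DG and 281 and 322 far from it. Its log2 ratio was 1.88 (95% interval 1.22 to 2.66) and 2.62 (2.16 to 3.14). Rgs14, a regulator of G protein signalling known from CA2, was higher far from DG by 1.43 and 1.42, and Nnat by 1.10 and 1.12. Ociad2 had 107 and 131 CPM near DG and 259.8 and 263 far from it. Tmsb4x, an actin-binding thymosin, was higher far from DG by 0.97 and 0.76 and Ly6e by 0.74 and 0.79.

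In the opposite direction, Rph3a, a Rab3 effector on synaptic vesicles, had 407 and 399 CPM near DG and 129 and 138 far from it. The log2 ratio of Rph3a, far over near, was -1.65 (-2.18 to -1.16) and -1.53 (-1.84 to -1.24). Synpr, the vesicle protein synaptoporin that is abundant in mossy fibre terminals, stood at -1.20 and -1.19, and Lmo4, a LIM-domain transcription cofactor, at -0.95 and -1.26. Sst stood at -0.73 and -0.95, Btbd3 at -0.76 and -0.73 and Aldoc, an aldolase of astrocytes, at -0.82 and -0.62. Intervals of these 6 genes lay below 0 in both sections.

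Markers of the bordering tissue moved with this distance. DG granule cell markers summed to 268 and 236 CPM near DG and 50.9 and 64.0 far from it, astrocyte markers to 2033 and 1852 near and 1352 and 1308 far, and CA2 markers to 1170.0 and 747 near and 2193 and 986 far. Thalamic markers were also higher near, by 1.05 and 0.91 on the log2 scale, and oligodendrocyte markers were higher far, by 0.68 and 0.36. Interneuron markers, Sst among them, stood at -0.51 (-0.76 to -0.27) and -0.38 (-0.50 to -0.26), far over near. The part of these tissues in the values of Crym, Rph3a and the other genes was not tested. The 10 CA3 genes outside the score differed little along the layer under the label trained (0.12, interval -0.05 to 0.30) and were higher far from DG under the label untrained (0.32, 0.20 to 0.43). Immediate early genes summed to a log2 ratio of -0.25 and -0.02, and vesicle release genes to 0.15 in both sections. When all 70 spots were split in place of the patches, vesicle release genes stood at -0.10 (-0.16 to -0.05) and 0.10 and the 10 CA3 genes at -0.18 (-0.34 to -0.01) and 0.24, so that both turned sign under the label trained. In that split Crym (1.60 and 2.60) and Rph3a (-1.53 and -1.45) were again past 2-fold, and the myelin genes Mobp and Mbp were among the 6 highest far from DG.

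**Figure D4:**
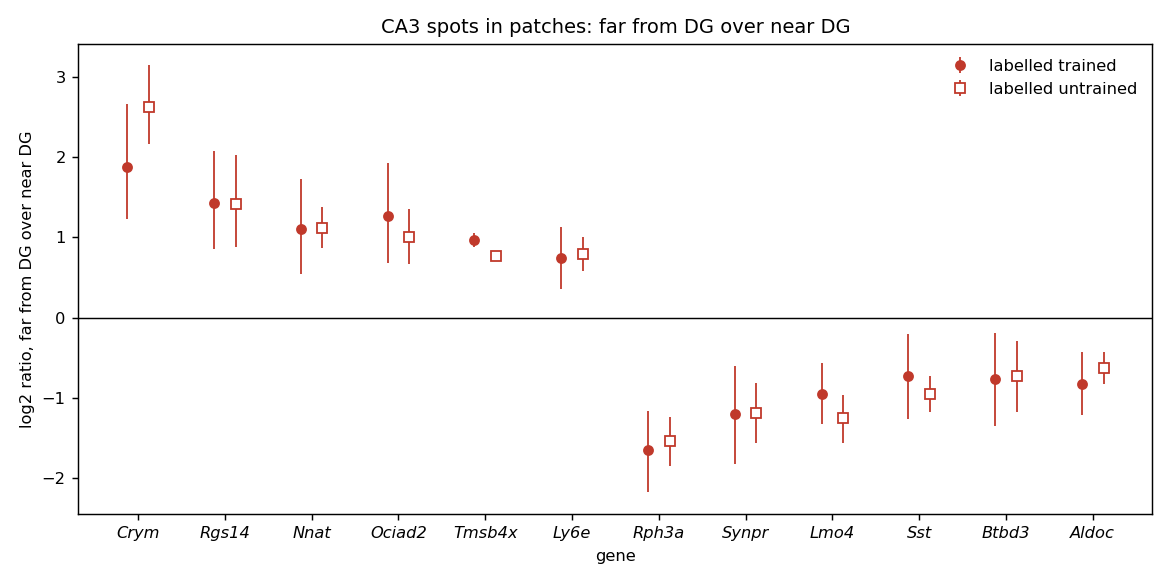
Log2 ratio of CA3-score spots in patches far from DG over those near DG, in the section labelled trained (filled) and untrained (open), with 95% intervals from counting as bars. The 6 genes on the left are above 0 and the 6 on the right below 0 in both sections, with Crym and Rph3a at the ends of the range.

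The labels were then compared in CA3-score spots, the comparison for which the study was designed. Of 2570 genes with at least 200 UMIs over both sections, 31 (1.21%) were at least 2-fold higher and 24 (0.934%) at least 2-fold lower in the section labelled trained. Over genes, the log2 ratio was centred at 0.06 (median) and spread with a standard deviation of 0.43. Within the sections, the left over right log2 ratio of the same genes spread with a standard deviation of 0.35 and 0.24, and 23 (0.895%) and 8 (0.311%) genes were past 2-fold. Both sides share animal, section and library, so this spread is no scale for differences between mice. All 31 higher and 23 of 24 lower genes had the same sign on both sides of the brain. Since the genes were called on the spots of both sides pooled, this sharing of sign is no separate check. The sign was also the same in CA1 and in DG spots for 31 of 31 and 24 of 24 genes and in the rest of the section for 30 of 31 and 24 of 24, where 14 and 9 were past 2-fold. With patches alone, 20 of the 31 and 21 of the 24 were past 2-fold.

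Among genes higher under the label trained, Nme7, a nucleoside diphosphate kinase family member, had 348 against 16.3 CPM, a log2 ratio of 4.40 (3.89 to 4.98), with 4.07 in CA1, 4.13 in DG and 3.29 in the rest of the section. Nap1l5, an imprinted gene of the nucleosome assembly protein family, had 492 against 171 CPM (1.53), Tmsb10, an actin-sequestering thymosin, 509 against 200.3 (1.35, but 0.87 in patches), and Basp1, a growth-cone membrane protein, 818 against 338 (1.28). Spag9, a scaffold of JNK signalling, stood at 1.32, and Tmem258, a subunit of the oligosaccharyltransferase, at 1.24. For Basp1, Spag9 and Tmem258 the ratio in CA3-score spots lay between those in CA1 and DG spots. Hbb-bs, a beta globin of red blood cells, stood at 1.24 but at 0.28 on the left, 1.94 on the right and 0.95 in patches. Nme7, Nap1l5, Spag9 and Tmem258 overlap other genes on the opposite strand, for Nme7 both Blzf1 and Atp1b1, and Atp1b1 itself differed by 0.01 at 2039 and 2055 CPM.

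Among genes lower under the label trained, Bc1, a short noncoding RNA that represses translation in dendrites, had 32.3 against 312 CPM, a log2 ratio of -3.25 (-3.90 to -2.71), with -3.24 in CA1, -2.13 in DG and -3.47 in the rest of the section. The mitochondrial genes mt-Atp8 and mt-Nd4l stood at -1.80 and -1.53, and Gm10076 at -1.90. Enpp2, the enzyme autotaxin that is abundant in choroid plexus, stood at -1.43 (-1.79 in patches), and it overlaps an annotated gene on the other strand. Ttr, the transthyretin gene of choroid plexus, had 1120 against 3431 CPM (-1.61), and -2.96 in patches, -3.02 in CA1 and -1.76 in the rest of the section. Choroid plexus markers as a list summed to 1142 and 3486 CPM in CA3-score spots, to 373 and 2850 in patches, to 4451 and 7182 in scattered spots and to 5900.3 and 20026 in the rest of the section, and their part in the values of Ttr and Enpp2 was not tested. Stx1a, a plasma membrane SNARE, had 38.5 against 103 CPM (-1.40, -2.01 to -0.87).

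**Figure D5:**
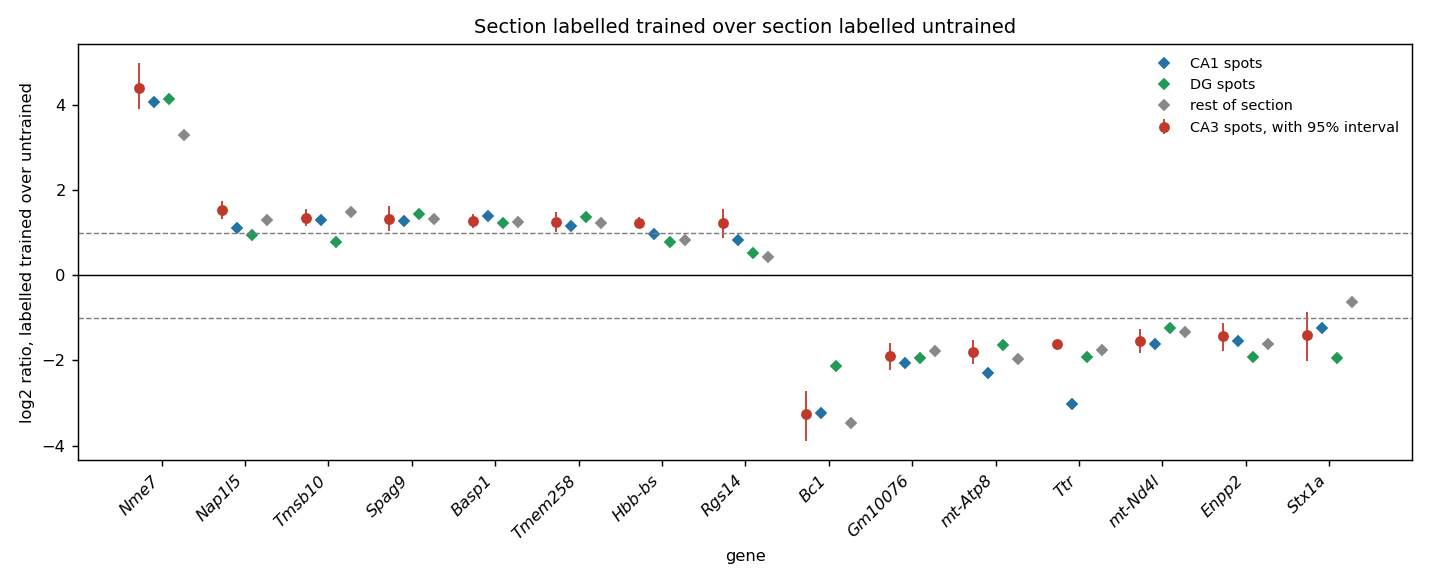
Log2 ratio of the labels, trained over untrained, for the 8 highest and 7 of the 8 lowest genes of CA3-score spots, with 95% intervals for CA3-score spots and the ratios of CA1 spots, DG spots and the rest of the section beside them. Dashed lines mark 2-fold. For each gene all 4 areas lie on the same side of 0.

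By gene group, 0 of 12 mitochondrially encoded genes were above 0, beside 1447 of all 2570 genes (56.3%). Their median log2 ratio was -0.79 in CA3-score spots, -0.95 in patches, -0.93 in CA1, -0.82 in DG and -0.63 in the rest of the section, and they made up 72207 and 110843 CPM. Since they take a share of the total, the median of all genes was 0.06 with them in the total and 0.00 without. Vesicle release genes, which stood above the other layers, were lower under the label trained in 18 of the 22 with enough UMIs here (Stx1a among them and Rims1 not), with a median of -0.37 (-0.34 in CA1, -0.53 in DG, -0.12 in the rest of the section, and -0.33 in patches). Syn1, a synapsin, had 282 against 594 CPM (-1.07) and Stx1a was also past 2-fold, while Snap25 went the other way, at 0.51. Nuclear genes of oxidative phosphorylation had 42 of 76 above 0 with a median of 0.02. Cytoplasmic ribosomal protein genes had 48 of 80 above 0 with a median of 0.08, within which Rpl4 (1.09) and Rpl5 (1.02, but 0.98 in patches) were past 2-fold upwards and Rpl11 (-1.04) downwards.

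Immediate early genes were too sparse for more than 6 of 22 to be compared. Of these 5 were above 0, beside 56.3% of all genes, with a median of 0.21 against 0.07 in CA1 and 0.26 in DG. Rheb, a small GTPase upstream of mTOR, had 272 against 157 CPM (0.79) and Nrn1 409.6 against 270.4 (0.60), while Egr1 was at 0.20 and Egr3 at -0.35. Arc fell short of the UMI minimum, with 67 and 104 UMIs, and its ratio was 0.70 (0.23 to 1.15) against -0.14 in CA1 and -0.23 in DG. Of the 12 genes that the study names in its text and that were compared, 7 (58.3%) were above 0, a share near the 56.3% of all genes. Farthest from 0 were Rpl4, Rpl5 and Snap25, given above, Pcsk1n (0.48), Gapdh (-0.58) and Ywhag (-0.45). Bok (0.30, but -0.06 on the left), Bsn (-0.27), Shank1 (-0.37), Dkk3 (0.12), Crym (-0.11) and Prkcb (0.06) lay nearer to 0.

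The last question was in which genes the label ratio of CA3-score spots lay above or below the ratios of both CA1 and DG spots. Of 2156 genes with enough UMIs in all 3 sets, 775 had a CA3 ratio above both other layers and 612 below both, and 15 lay outside both by at least 0.5. Pcp4, a small calmodulin regulator abundant in CA2 and DG, had 2355 against 1054 CPM (1.16, 1.07 to 1.25) beside 0.02 in CA1 and 0.32 in DG. The ratio of Pcp4 was 2.02 on the left and 0.64 on the right, and -0.28 in the 31 and 40 spots with at least 2 members among their neighbours, against 1.11 in all spots of the patches. Rgs14 had 175 against 75.0 CPM (1.22), 1.32 in patches and -0.49 in the same 31 and 40 spots. Both are CA2 markers, and the cause of the turn in sign was not tested. Selenop, a secreted selenium carrier, stood at 0.62 beside 0.13 and -0.26, and Txn1, thioredoxin, at 0.78 beside 0.28 and 0.30. Cdc37 (0.10), Rpp21 (0.30) and Rhbdl1 (-0.34) also lay above both layers, but they had intervals that reached 0 and opposite signs on the left and the right. Selenop, which was at 0.34 in patches, and Rhbdl1 overlap annotated genes on the other strand.

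Below both layers, Ssx2ip, a protein of cell junctions and centrosomes, had 49.7 against 82.4 CPM (-0.72, -1.27 to -0.23) beside 0.15 in CA1 and 0.31 in DG, and -0.71 in patches. Pclo, the active zone scaffold piccolo, had 129 against 174 CPM (-0.42, -0.76 to -0.11) beside 0.26 in CA1 and 0.47 in DG. Sptbn4, a spectrin of the axon initial segment, stood at -0.82 beside -0.15 and -0.16, and Myh10, a nonmuscle myosin, at -1.08 beside -0.43 and -0.35. Fam234b stood at -0.66 beside 0.01 and -0.04, and Atp13a2, a lysosomal ATPase, at -0.49 beside 0.12 and 0.13. Pclo, Sptbn4 and Fam234b overlap other genes on the opposite strand. These 6 genes kept a ratio below 0 on both sides of the brain and in patches. The differences between layers in these ratios were not tested, since each rests on 1 section per label.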

How the data were processed

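Visium libraries of 1 section per label were used. The authors trimmed reads with TrimGalore and made the UMI counts per gene and spot with Space Ranger 2.0.0 on mm10, and the deposited counts were used unchanged. The deposited tables of spatial enrichment held Moran's I, the authors' score of spatial unevenness, and UMI totals that equalled the matrix for all 20513 and 21498 genes listed. Gene positions came from GENCODE vM21 (GRCm38), and images were not used here. The members and gene lists were chosen with earlier results of these data known.

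Python 3.11.15 was used with pandas 2.3.3, scipy 1.17.1, numpy 2.4.6 and matplotlib 3.10.9. CA1 and DG spots were the 70 highest scores over 6 markers each after CA3-score spots had been set aside (0 and 1 of the first 70 for CA1, 3 and 2 for DG), and a spot high for both went to the set of its better rank. UMIs were pooled per set, scaled to CPM, and compared as log2 ratios with 0.5 UMI added. A gene was called past 2-fold, with no test. Named genes were those with the highest or lowest ratio (12 and 6 for layers, 8 and 8 for labels with the same sign on both sides, 6 and 6 for the others) and members of the lists, and 1 gene that this rule selected between labels is not reported here. Sides were divided by a midline set by eye after the maps had been seen, and patches were defined after the data had been seen. Other settings changed the UMI minimum, the number of members, their neighbours, the weighting, the total, the centring, the gene minimum and the side. The computation was tested on simulated counts.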

Additional observations from a re-analysis of the deposited data

Results flagged for a closer look

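In 4 genes of the lists, with the score genes left out, the 95% interval of the label ratio in CA3-score spots lay on the opposite side of 0 from that of another area. The difference between areas was not tested in any of them, since it rests on 1 section per label. Sst, the somatostatin gene of interneurons, had a log2 ratio of -0.92 in CA3-score spots (-1.03 in patches) and 0.31 in the rest of the section, with 194 and 368 CPM in CA3-score spots. In DG spots Sst was also lower under the label trained, at -0.71, and in CA1 spots it stood at 0.06. Other interneuron markers in CA3-score spots lay nearer to 0, Gad1 at 0.08 and Pvalb at -0.27 (-0.56 to 0.01). Npy, the neuropeptide Y gene, had -0.65 in CA3-score spots, with 192 and 302 CPM, and 0.22 in the rest of the section. In CA1 and DG spots the ratio of Npy had the same sign as in CA3-score spots, at -0.25 and -0.54. Pclo had -0.42 in CA3-score spots against 0.47 in DG and 0.13 in the rest of the section. Prkcd, a protein kinase C gene listed as a thalamic marker, had 0.77 in CA3-score spots from 102 and 151 UMIs, -2.55 in DG from 5 and 86 UMIs, and -0.12 in the rest of the section.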

How the results depend on the processing

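No paired analysis was possible because each label has 1 section and the sections share the number 1 alone. Of 596 values of 46 named genes under 13 other settings, 529 moved by less than their counting interval and 65 moved more. A changed gene minimum could not move these values, and its settings are counted among the 529. A sign differed in 6 of the 596. Pcp4 went to -0.28 and Rgs14 to -0.49 in spots with at least 2 members among their neighbours, and in the other 4 the counting interval already held 0: Cdc37 (-0.08 with 100 spots, -0.35 with left spots), Rhbdl1 (0.29 with left spots) and Rpp21 (-0.05 with right spots). Genes at least 2-fold higher than both layers numbered 46 with a lower gene minimum (0.5 times) and 5 with left spots, where 1165 genes could be compared, against 30. Genes lower numbered 35 in spots with 2 member neighbours, 37 with the lower minimum and 6 with left spots, against 22. Genes higher under the label trained numbered 20 with 50 spots, 16 with 2 member neighbours, 19 without mitochondrially encoded genes in the total, 19 after centring on the median, 73 with the lower and 15 with the higher gene minimum (2 times), and 10 with left spots, against 31, and genes lower numbered 65 with the lower and 15 with the higher minimum, against 24. With patches alone, chosen after seeing the data, 18 of 31 and 19 of 24 remained, fewer than the 20 and 21 past 2-fold there because the rest no longer reached the gene minimum. Immediate early genes above 0 numbered 9 with 100 spots, 10 and 3 with the lower and higher minimum, and 2 with left spots, against 5, mitochondrially encoded genes 1 with the lower minimum, against 0, and vesicle release genes 1 with left spots, against 4. Ribosomal protein and oxidative phosphorylation counts stayed within 1.5 times. The label trained had the lower depth, and the intervals leave out variation between animals.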

Other observations

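Some genes at least 2-fold higher in CA3-score spots than in both other layers belonged to no list fixed for this work, and they are named here after their values were seen. They included Nptxr, a receptor for neuronal pentraxins, Stmn2, a stathmin that binds tubulin, Cd200, a ligand that acts on microglia, Dnajc6, an auxilin of clathrin uncoating, Slc25a22, a mitochondrial glutamate carrier, and Eno1, a glycolytic enolase. Genes at least 2-fold lower included Penk, the proenkephalin gene, Bhlhe40, a clock-related repressor, Itpka, a kinase of inositol trisphosphate in spines, and Spon1, a secreted matrix protein. With patches alone, Itpka was no longer past 2-fold, whereas Calb1, the calcium-binding protein calbindin of DG and CA1, was.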
